A study of Mus musculus with 6 samples.

Results

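The T-cell receptor is assembled from gene segments of 4 loci, and 22 of the 41345 probe sets on these arrays carried the name of such a segment. A probe set is a group of short probes summarised as 1 value, given here as a log2 signal. The members were found through the symbols of the platform annotation, and all 22 were named for variable segments: 19 for 6 Trav segments of the alpha chain, 1 for the beta segment Trbv13-2 and 2 for the gamma segments Trgv5 and Trgv6. All 9 segments were found by their gene identifiers in RefSeq's table for GRCm38.p6. It lists 130 Trav, 35 Trbv and 7 Trgv symbols, so few of the segments were named on the array. No probe set carried the name of a joining segment, a constant region, a delta segment or a whole locus, and these were not analysed here.

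RNA was compared between CD4+ CD8+ double-positive (DP) thymocytes of Ets1-/- mice and of wild-type (WT) mice, with 3 arrays in each group. All mice were C57BL/6 and 5 to 6 weeks old. The cells were fixed with formaldehyde and then taken with magnetic beads against CD8 and against CD4. Biological replicates were cohorts of litter mates, per the labels' protocols, so p-values measure the spread between these samples. The sources used here do not say how many animals went into an array.

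A T-cell receptor chain is built by V(D)J recombination, in which the Rag1 and Rag2 recombinase joins a variable segment to a joining segment, with a diversity segment between them in beta and delta chains. The beta locus is rearranged at the double-negative stage and the alpha locus at the double-positive stage. Alpha rearrangement begins with variable segments close to the joining segments and can be repeated on the same chromosome, each time with segments farther out, until the cell is selected or dies. Gamma chains belong to the other lineage, the gamma-delta T cells. Ets1 is an ETS-family transcription factor, and in human T cells it is known to bind the alpha enhancer together with a Runx factor. Mouse alpha variable segments exist in near-identical copies that arose by duplication of a large stretch of the locus. The sources used here do not give the probe sequences, so signals from related copies cannot be told apart within a probe set.

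Several members repeated each other. The Trav12-2 probe sets 17299849 and 17299926 had identical values on all 6 arrays, as did 17299857 and 17299934. The only member naming several genes, 17299944, named Trav3n-3 and the clone A430107P09Rik, and its values were identical to those of a probe set named for that clone alone. The 22 members therefore held 20 distinct measurements, 17 of them of the alpha chain. Across the table, 1395 probe sets had values identical to another on all arrays.

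The arrays differed in level before any gene was considered. Their medians over all probe sets were 3.66, 4.31 and 4.19 for Ets1-/- replicates 1 to 3 and 4.21, 4.25 and 4.33 for WT replicates 1 to 3. The median log2 difference (Ets1-/- minus WT) of all probe sets was -0.23, and -0.01 after each array was centred on its median, so differences are also given on the centred scale. Of all 41345 probe sets, 269 had higher and 77 lower signals in Ets1-/- (limma adjusted p under 0.05), which is 0.837% in all. With a pseudocount of 16 on the linear scale the split was 459 higher and 304 lower, where the share of higher calls was 60.2% against 77.7% with the deposited values. The targeted gene could not check the labels. Ets1 had log2 signals of 9.27, 9.22 and 8.79 in Ets1-/- and 9.11, 9.32 and 9.17 in WT (log2 difference -0.10 ± 0.23 SE, limma adjusted p = 0.868). The sources used here do not say whether its probes fall inside the deleted part.

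Most alpha-chain variable probe sets had lower signals in Ets1-/- thymocytes, but 0 of the 22 receptor probe sets passed the test across the whole array. With limma, 0 were called higher and 0 lower, against 0.651% and 0.186% of all probe sets. At an unadjusted limma p under 0.05, 9 were lower and 0 higher, against 7.42% and 3.64% of all probe sets. In 13 of the 22 every Ets1-/- value lay below every WT value, where 14.7% of all probe sets did so, and in 0 of the 22 every Ets1-/- value lay above, where 5.17% did. On the centred scale that number was 9, against 8.41% of all probe sets. Counting each distinct alpha measurement once, 11 of 17 did not overlap as deposited and 8 of 17 after centring. The log2 difference was below 0 in all 19 alpha probe sets with the deposited values and in 18 after centring, the exception being Trav12-2 probe set 17300173. Among all probe sets, 71.5% were below 0. The median log2 difference of the 19 was -0.62, a fold of 0.648, and -0.41 after centring, beside -0.23 and -0.01 for all probe sets. Probe sets at or above the median signal, the range in which all 19 lay, had a median of -0.18, with 68.2% of them below 0. In bulk RNA, fewer transcripts per cell and fewer cells using a segment cannot be told apart.

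**Figure D1:**
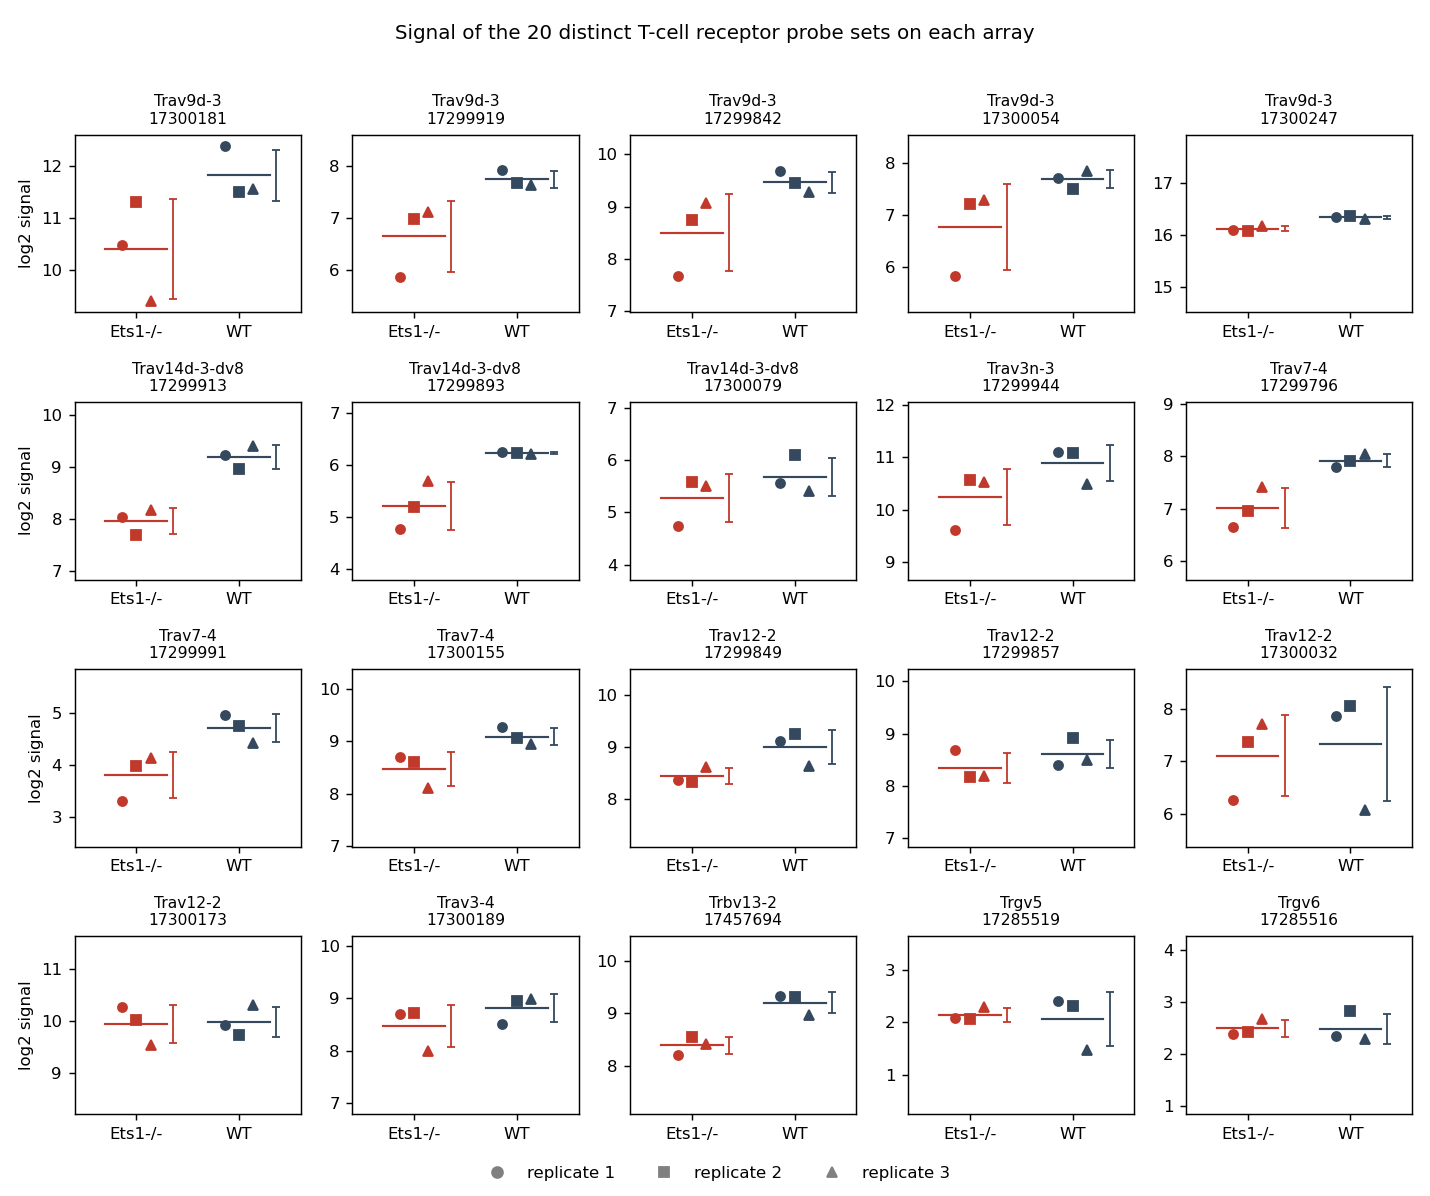
Log2 signal (vertical axes, each spanning the same range) of the 20 distinct receptor probe sets on each array, Ets1-/- in red at the left and WT in grey at the right of each panel, with the group mean as a line and the SD (n = 3) as a bar beside it. The groups are separate in 12 of the 20 panels, always with Ets1-/- lower, while the gamma segments and most Trav12-2 probe sets overlap. Of all probe sets, 14.7% are separate with Ets1-/- lower and 5.17% with Ets1-/- higher.

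Trav14d-3-dv8 gave the smallest p-value of all members. This variable segment can be joined to delta as well as to alpha segments, as the dv in its name records. Its probe set 17299913 had log2 signals of 8.04, 7.69 and 8.18 in Ets1-/- and 9.22, 8.95 and 9.40 in WT. All 3 Ets1-/- values were thus below all 3 WT values, with a gap of 0.77 between the groups. The log2 difference was -1.22 ± 0.24 (SE; 95% interval -1.80 to -0.64), a fold of 0.430, with a limma adjusted p of 0.125. It was -1.01 after centring. The call turned with the settings: the limma adjusted p was 0.0253 with the pseudocount of 16, 0.0444 among probe sets at or above the median signal and 0.00501 with an intensity trend and a robust prior, which called 0.735%, 1.09% and 0.878% of the probe sets they tested as lower. Over all alternatives it ran from 0.00501 to 0.360.

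The other probe sets with that name were less uniform. Probe set 17299893 had 4.77, 5.19 and 5.69 in Ets1-/- and 6.24, 6.22 and 6.20 in WT, so the groups did not overlap and nearly all of the spread was within Ets1-/-. Its log2 difference was -1.0 ± 0.28 (SE; limma adjusted p = 0.269). Probe set 17300079 had 4.74, 5.58 and 5.51 in Ets1-/- and 5.56, 6.09 and 5.40 in WT, which overlapped, and its log2 difference was -0.41 ± 0.33 (SE; limma adjusted p = 0.665). It was -0.14 without Ets1-/- replicate 1 and -0.20 without WT replicate 2.

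Trav9d-3 named 5 probe sets, and in all 5 the Ets1-/- values lay below the WT values, as in 14.7% of all probe sets. After centring this held for 4 of the 5, against 8.41%, and 17300247 overlapped. The widest difference was in 17300181, with 10.49, 11.31 and 9.41 in Ets1-/- and 12.38, 11.50 and 11.56 in WT. Its log2 difference of -1.42 ± 0.53 (SE; 95% interval -2.70 to -0.14; limma adjusted p = 0.411) had a wide error because the Ets1-/- arrays disagreed, with replicate 3 the lowest. It was -0.92 without Ets1-/- replicate 3 and -1.87 without Ets1-/- replicate 2.

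A different array was lowest in the next 3 Trav9d-3 probe sets, where Ets1-/- replicate 1 stood below the other two. Probe set 17299919 had 5.87, 6.98 and 7.11 in Ets1-/- and 7.93, 7.68 and 7.63 in WT. Probe set 17299842 had 7.68, 8.75 and 9.08 in Ets1-/- and 9.68, 9.45 and 9.28 in WT. Probe set 17300054 had 5.83, 7.22 and 7.29 in Ets1-/- and 7.71, 7.50 and 7.85 in WT. These patterns were alike, and Ets1-/- replicate 1 is also the array with the lowest median over all probe sets. Their log2 differences of -1.09, -0.97 and -0.91 (limma adjusted p = 0.362, 0.448 and 0.511) were -0.88, -0.76 and -0.70 after centring, and -0.70, -0.56 and -0.43 without that array.

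The last Trav9d-3 probe set, 17300247, lay at the top of the scale. It held the highest value of the whole table on all 6 arrays, with 16.10, 16.08 and 16.17 in Ets1-/- and 16.35, 16.36 and 16.31 in WT. The groups did not overlap, but the log2 difference of -0.22 ± 0.19 (SE; limma adjusted p = 0.668) equalled the median shift of all probe sets, was -0.01 after centring, and whether signals of this size are compressed was not tested. With an intensity trend and a robust prior it was called lower (adjusted p = 0.00416), at the same log2 difference. The other 4 probe sets of that name had log2 differences of -1.42 to -0.91. Their group means lay between 6.65 and 11.82, far below those of 17300247. Without the probe sequences, whether 17300247 covers the segment it is named for could not be checked.

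Trav7-4 was named by 3 probe sets whose groups were all separate, with Ets1-/- lower as in 14.7% of all probe sets. Probe set 17299796 had 6.65, 6.96 and 7.42 in Ets1-/- and 7.80, 7.92 and 8.04 in WT. Probe set 17299991, a dimmer one, had 3.31, 3.97 and 4.13 in Ets1-/- and 4.96, 4.75 and 4.42 in WT. Probe set 17300155 had 8.70, 8.61 and 8.10 in Ets1-/- and 9.27, 9.06 and 8.95 in WT. The Ets1-/- arrays were lower throughout, by log2 differences of -0.91, -0.90 and -0.62 (SE 0.26, 0.30 and 0.25; limma adjusted p = 0.287, 0.347 and 0.435). After centring they were -0.70, -0.69 and -0.41, and 17300155 then overlapped, which left 2 of the 3 separate, against 8.41% of all probe sets. With the pseudocount of 16 the difference of 17299991 was -0.48.

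Trav3n-3 and Trav3-4 had overlapping groups. The Trav3n-3 probe set had 9.62, 10.56 and 10.53 in Ets1-/- and 11.11, 11.09 and 10.50 in WT (log2 difference -0.66 ± 0.35 SE, limma adjusted p = 0.550). Without Ets1-/- replicate 1, the lowest of the 6, the difference was -0.35. The Trav3-4 probe set 17300189 had 8.70, 8.72 and 8.0 in Ets1-/- and 8.51, 8.95 and 8.98 in WT (log2 difference -0.34 ± 0.29 SE, limma adjusted p = 0.675). Without Ets1-/- replicate 3 it was -0.10.

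Trav12-2 was the segment closest to the array-wide shift, with a median log2 difference of -0.25 over its 6 probe sets and of -0.04 after centring. The identical pair 17299849 and 17299926 had 8.38, 8.34 and 8.62 in Ets1-/- and 9.12, 9.25 and 8.64 in WT, which were separate by only 0.02 and overlapped after centring (log2 difference -0.55 ± 0.25 SE, 95% interval -1.15 to 0.04). The identical pair 17299857 and 17299934 had 8.68, 8.16 and 8.19 in Ets1-/- and 8.40, 8.91 and 8.50 in WT. Probe set 17300173 had 10.26, 10.02 and 9.54 in Ets1-/- and 9.92, 9.73 and 10.30 in WT. Neither shows a separation of the groups, with log2 differences of -0.25 and -0.04 (95% intervals -0.88 to 0.37 and -0.73 to 0.65). Probe set 17300032 was the noisiest member, with 6.25, 7.36 and 7.72 in Ets1-/- and 7.86, 8.06 and 6.07 in WT. Its log2 difference of -0.22 had a 95% interval of -1.78 to 1.34 and changed sign when Ets1-/- replicate 1 or WT replicate 1 or 2 was left out.

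**Figure D2:**
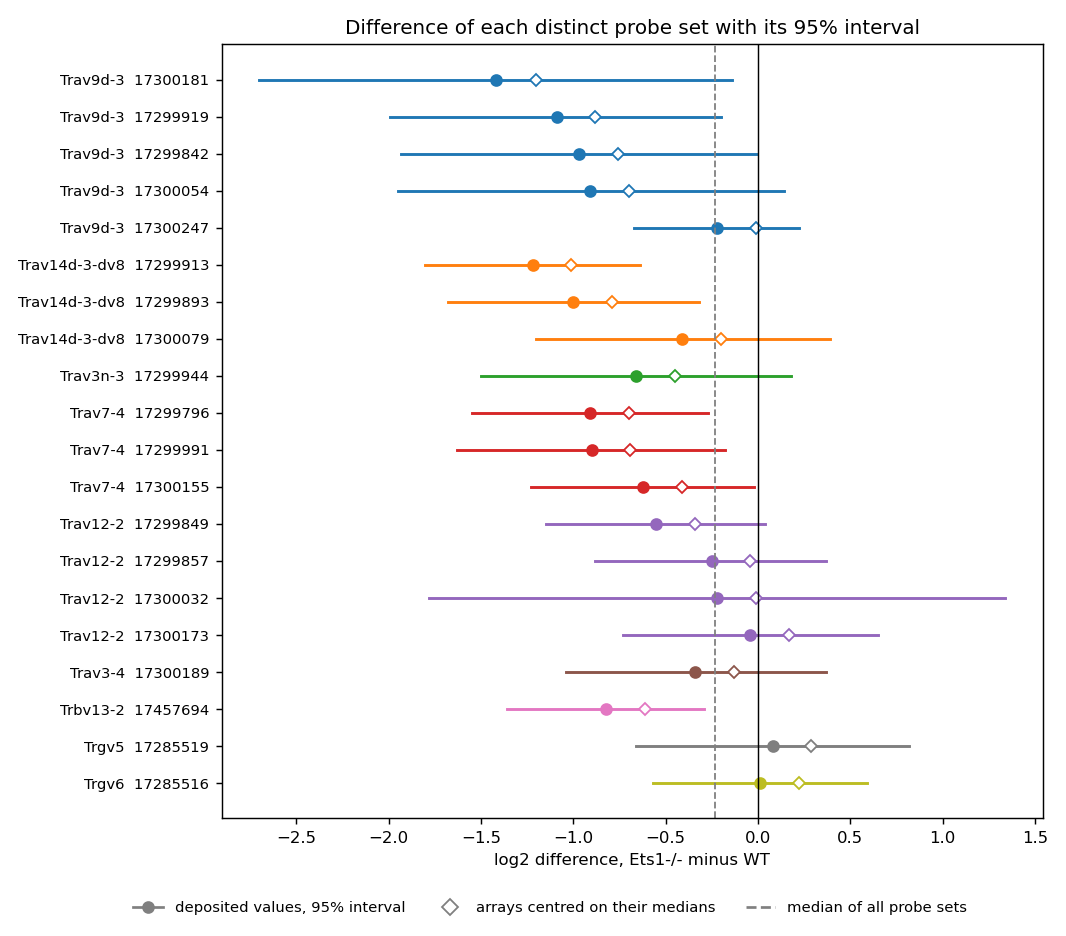
Log2 difference (horizontal axis, Ets1-/- minus WT) of each distinct probe set, with filled points and limma 95% intervals for the deposited values and open diamonds after centring each array on its median. The interval lies below 0 for 8 alpha probe sets and for Trbv13-2, as it does for 7.42% of all probe sets. The dashed line marks the median of all probe sets at -0.23.

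The 6 alpha segments were set against their order in RefSeq's table for GRCm38.p6, in which Trac lies beyond the last Trav segment. The sources used here do not name the build of the array's design, so no positions are used beyond this order. Counted from the end far from Trac, Trav9d-3 was number 31 of 130 symbols, Trav14d-3-dv8 number 47, Trav3n-3 number 71, Trav7-4 number 88, Trav12-2 number 104 and Trav3-4 number 121. The median log2 differences in that order were -0.97, -1.0, -0.66, -0.90, -0.25 and -0.34. The 2 segments nearest to Trac thus had the differences closest to 0, and 0 of their 7 probe sets (5 distinct) had a 95% interval below 0, against 8 of the 12 probe sets of the 4 segments farther away and 7.42% of all probe sets. The difference between near and far segments was not tested, since it was seen in the same values. The order is that of the annotated names. Probe sets that share a name had unlike values, and where each probe set itself lies was not checked. The probe sets of Trav9d-3 spanned -1.42 to -0.22 and those of Trav14d-3-dv8 spanned -1.22 to -0.41. Probe sets of a single name could thus span more than the medians of the 6 segments did.

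**Figure D3:**
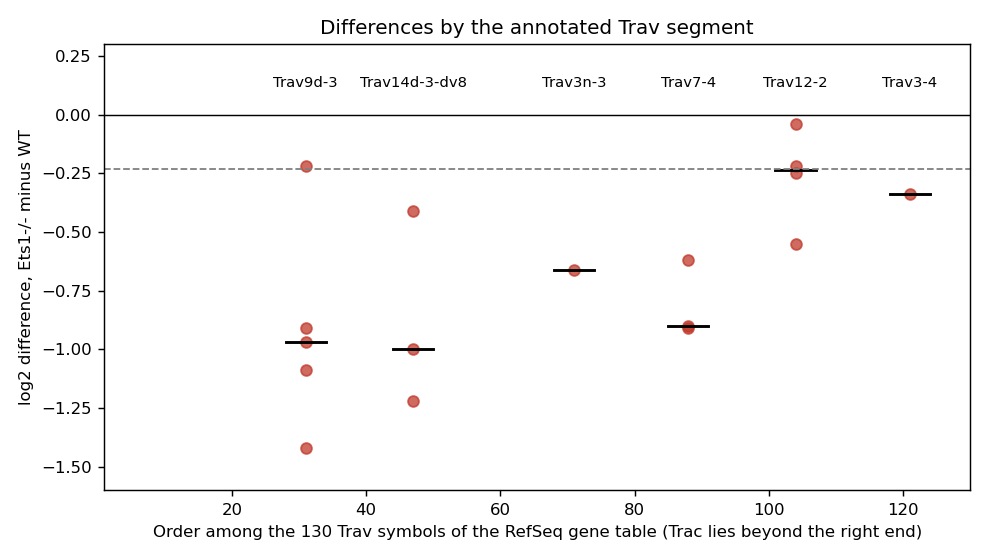
Log2 difference (vertical axis, Ets1-/- minus WT) of the 17 distinct alpha probe sets against the order of their annotated segment among the 130 Trav symbols, with the end nearest to Trac at the right. Short lines are medians of distinct probe sets, the dashed line is the median of all probe sets, and Trav12-2 and Trav3-4 lie nearest to it. Where the probe sets themselves lie along the locus was not checked.

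The alpha probe sets were also followed array by array, as the deviation of each from its own WT mean. The median deviation over the 17 distinct probe sets was -1.15, -0.48 and -0.45 on Ets1-/- replicates 1 to 3 and 0.03, 0.00 and -0.12 on WT replicates 1 to 3. After centring it was -0.55, -0.53 and -0.37 on the Ets1-/- arrays and 0.08, 0.02 and -0.18 on the WT arrays. By these medians, all 3 Ets1-/- arrays were thus below all 3 WT arrays on either scale. The larger deviation of Ets1-/- replicate 1 was not seen after centring. Single probe sets on that array still ran from -1.27 to 0.88 after centring. On the centred scale, 12, 17 and 16 of the 17 lay below their WT mean on Ets1-/- replicates 1 to 3. The counts were 5, 7 and 12 on WT replicates 1 to 3, so Ets1-/- replicate 1 and WT replicate 3 were equal. The centred mean of the 19 was 8.48 on Ets1-/- replicate 1 and 8.54 on WT replicate 3. The mean of all 19 alpha probe sets was 8.19 ± 0.20 in Ets1-/- and 8.85 ± 0.13 in WT (SD, n = 3 each), and after centring 8.32 ± 0.15 in Ets1-/- and 8.77 ± 0.19 in WT. WT replicate 3 was the lowest WT array in 11 of the 19, and without it the median difference of the 19 was -0.82.

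**Figure D4:**
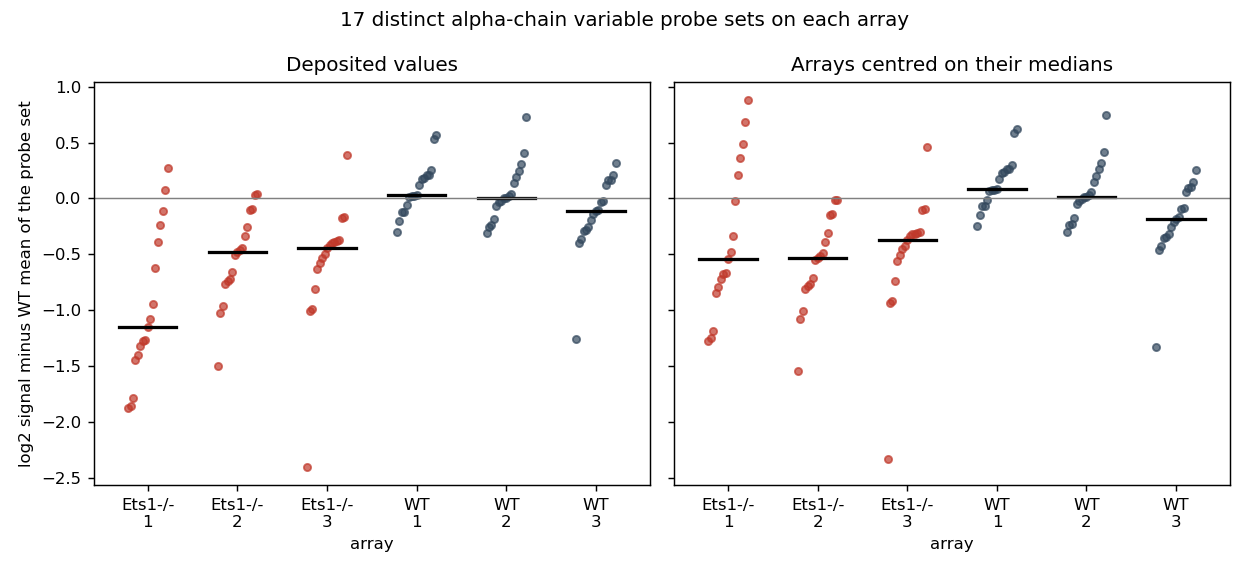
Deviation of each distinct alpha probe set from its WT mean (vertical axis, log2) on each array, as deposited at the left and after centring at the right, with lines for the medians. The medians of the Ets1-/- arrays, -0.37 to -0.55 after centring, lie below those of the WT arrays, -0.18 to 0.08.

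The beta chain was represented by Trbv13-2 alone, a variable segment also known as V beta 8.2 and used by conventional and by natural killer T cells of mice. Its probe set 17457694 had 8.21, 8.54 and 8.41 in Ets1-/- and 9.34, 9.31 and 8.97 in WT. The groups were separate by 0.44 and stayed separate after centring. The log2 difference was -0.82 ± 0.22 (SE; 95% interval -1.36 to -0.29), a fold of 0.565, with a limma adjusted p of 0.249, and it was -0.61 after centring. It was called lower only with the intensity trend and robust prior among the alternatives run (adjusted p = 0.0193; range 0.0193 to 0.568). A single segment cannot stand for the locus, since the constant regions and the other Trbv segments were not analysed here.

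The gamma chain showed no separation of the groups. Trgv5 and Trgv6 are variable segments known from fetal waves of gamma-delta T cells. The Trgv5 probe set had 2.08, 2.06 and 2.30 in Ets1-/- and 2.42, 2.31 and 1.48 in WT. The Trgv6 probe set had 2.38, 2.42 and 2.67 in Ets1-/- and 2.34, 2.82 and 2.29 in WT. Both were dim, at the 7.6th and 11.2th percentile of mean signal over all probe sets, with values below the median of each array. Their log2 differences were 0.08 (95% interval -0.66 to 0.82) and 0.01 (95% interval -0.57 to 0.59), with limma adjusted p of 0.931 and 0.990. Changes within these intervals cannot be told from 0 here. Larger ones could be missed by the adjusted test too. On simulated data the fit recovered 0.588% of log2 changes of 1 and 24.8% of changes of 2 over the whole table.

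The genes that assemble the receptor and those whose products sit beside it gave few calls. Of 10 measured genes of recombination and end joining, 0 were called higher and 0 lower by limma. At an unadjusted limma p under 0.05, 1 was lower, against 7.42% of all probe sets. That gene was Dntt, the terminal transferase that adds bases at the joints, with 10.39, 10.42 and 10.41 in Ets1-/- and 10.86, 10.90 and 10.84 in WT. The values of each group hardly varied and did not overlap. Yet the log2 difference of -0.46 ± 0.18 (SE) had a limma adjusted p of 0.437, and it was -0.25 after centring. Dntt was called lower only with the intensity trend and robust prior among the alternatives run (limma adjusted p = 0.00316). Rag2, the recombinase partner, was separate too, at 9.48 ± 0.04 in Ets1-/- and 9.77 ± 0.07 in WT (SD, n = 3 each; log2 difference -0.29, limma adjusted p = 0.610; -0.08 after centring). The chromatin protein Hmgb2, a cofactor of the recombinase, and the kinase gene Prkdc had log2 differences of -0.40 and -0.38. These 4 of the 10 genes had every Ets1-/- value below every WT value, as did 14.7% of all probe sets. In 1 of the 10, Xrcc6 (log2 difference 0.14), every Ets1-/- value lay above, as in 5.17% of all probe sets. The median of the list was -0.25, beside -0.23 for all probe sets.

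Of the 4 measured genes for CD3 chains and the pre-T-cell receptor, 0 passed over all probe sets. At an unadjusted limma p under 0.05, 1 was higher, against 3.64% of all probe sets. This was Ptcra, the chain that stands in for alpha before the alpha locus is rearranged, with 9.0, 9.37 and 9.50 in Ets1-/- and 8.04, 7.81 and 7.54 in WT. It lay opposite in direction to the alpha segments, with a log2 difference of 1.50 ± 0.25 (SE; limma adjusted p = 0.0733). It was called higher under 7 of the alternatives, among them quantile normalization (adjusted p = 0.0302) and the pseudocount of 16 (adjusted p = 0.0136), in a range of 0.00191 to 0.330. The CD3 chains, which carry the receptor's signal, differed little: Cd3d, Cd3e and Cd3g had log2 differences of 0.02, -0.12 and 0.16 (95% intervals -0.43 to 0.47, -0.56 to 0.33 and -0.30 to 0.62). The signs of Cd3d and Cd3e turned with the scaling. Cd247 had no probe set naming it alone and was not analysed here.

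Of 16 measured transcription factors and architectural proteins known at receptor enhancers and promoters, 1 was lower and 0 were higher by limma. Among all probe sets 0.186% were lower and 0.651% higher. The ETS factor Ets2 had 7.89, 8.36 and 7.95 in Ets1-/- and 9.93, 10.10 and 9.81 in WT (log2 difference -1.88 ± 0.23 SE, limma adjusted p = 0.0282). Its groups lay far apart, but the adjusted p was 0.0671 to 0.126 when any 1 array was left out. With the replicate number as a block the limma adjusted p was 0.159, and the labels do not say whether arrays of equal number came from the same litters. The next smallest p-values were those of the cohesin subunit Rad21 at -0.47, the chromatin boundary factor Ctcf at -0.34 and the ETS factor Gabpa at -0.40, with limma adjusted p of 0.477, 0.584 and 0.584. Runx1 and Lef1, partners at the alpha enhancer, had log2 differences of -0.29 and 0.24 (limma adjusted p = 0.634 and 0.674). The list's median was -0.12. Tcf7 and Atf1 were not analysed here.

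Markers of other cells moved with the genotype and are given beside the receptor values. The summed linear signal of 8 macrophage markers was 2630 to 3610 in Ets1-/- and 532 to 624 in WT. Of the 8, 7 were higher by limma, as were 0.651% of all probe sets. For 7 B-cell markers the sums were 368 to 767 in Ets1-/- and 80.6 to 102 in WT, with 3 higher. For 6 markers of mature single-positive T cells the sums were 806 to 1000 in Ets1-/- and 150 to 194 in WT, with 3 higher. Their log2 differences ran from -0.07 for Ccr7, whose groups overlapped, to 3.60 for Klf2, with a median of 3.01. For 6 markers of early T cells the sums were 1010 to 1230 in Ets1-/- and 321 to 434 in WT, with 1 higher, the interleukin-2 receptor gene Il2ra. The log2 differences of these early markers ran from -0.94 for Notch1 (groups separate, limma adjusted p = 0.322) through 0.10 for Kit to 3.17 for Il2ra. They include Ptcra, described above. Ptcra and Il2ra, with mean log2 signals of 9.29 and 8.71 in Ets1-/-, made up most of the Ets1-/- sums. The other early markers had means of 5.45 or lower there. In all 4 lists the lowest Ets1-/- sum was above the highest WT sum.

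Markers of the cells that use other receptor chains were mixed. For 7 gamma-delta T-cell markers the sums were 213 to 391 in Ets1-/- and 78.8 to 97.8 in WT, with 0 called by limma. At an unadjusted limma p under 0.05, 2 (Maf and Blk) were higher, against 3.64% of all probe sets. Maf had a mean log2 signal of 7.83 in Ets1-/-, against 4.17 or lower for the others, so it made up most of the Ets1-/- sums. Whether the Maf and Blk signals came from gamma-delta T cells or from other cells was not tested. The median log2 difference of the 7 was 0.04, in a range of -0.50 for Cd163l1 to 3.46 for Maf, with Il23r at -0.45 and Sox13 at -0.42. Of the 7, 4 lay below the array median on every Ets1-/- array and 5 on every WT array. For 8 markers of natural killer T and natural killer cells the sums were 591 to 1040 in Ets1-/- and 231 to 359 in WT. Limma called 1 higher, Nkg7, against 0.651% of all probe sets. The log2 differences were -0.55 for Ncr1, -0.49 for Klrb1c, -0.11 for Tbx21, 0.04 for Zbtb16 and 0.81 for Gzma. They were 1.24 for Klrd1, 3.23 for Nkg7 and 4.08 for Il2rb (limma adjusted p = 0.319), and the median was 0.42. Sums for 5 double-positive markers were 9110 to 9780 in Ets1-/- and 9890 to 10200 in WT, with 0 called by limma. At an unadjusted limma p under 0.05, 1 (Dntt) was lower, against 7.42% of all probe sets. Among these 5 markers, Cd4, Cd8a and Cd8b1 had log2 differences of 0.13, -0.09 and -0.03. The part of other cells in the lower receptor signals was not tested.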

How the data were processed

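The deposited table holds log2 signals of 41345 probe sets on 6 one-colour Affymetrix arrays. That they are on a log2 scale follows from their span of -15.86 to 16.36. Per the submitters' processing notes the authors used affy, with no version. The sources used here do not state the background correction, the normalization or the build. By the platform annotation 23521 probe sets named 1 gene, 1814 several and 16010 were unnamed here. Receptor probe sets were kept whether they named 1 or several genes.

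Differences (Ets1-/- minus WT) were fitted on the deposited log2 values of all probe sets with lmFit and eBayes of limma 3.58.1 under R 4.3.3 (two-sided, no covariate), with Benjamini-Hochberg adjustment over all probe sets and a threshold of 0.05. The number of arrays limits the precision. SE and 95% intervals are limma's moderated ones. For listed genes, the brightest probe set naming the gene alone was used. No filter on dim probe sets was applied. On simulated data for this comparison (10 runs over 41345 probe sets, 200 changed per run), the fit recovered 0.588% of log2 changes of 1, 24.8% of changes of 2 and 72.3% of changes of 4, and 4.59% of calls were wrong. The changed probe sets were drawn from the whole table, dim ones included. The shares recovered among the receptor probe sets may therefore differ. The simulated noise was normal, independent between probe sets, and without the difference in level between these arrays. The share of wrong calls in the data may therefore differ as well.

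Genes named are all receptor members, and from each list of receptor-related genes those past the threshold, up to 4 with the smallest p, and Rag2, Dntt, Ptcra, Ets1, Cd3e and Cd247. For the marker lists, the genes past the threshold were counted and named only where few. Runx1, Lef1, Cd4, Cd8a, Cd8b1, Maf, Blk, Cd163l1, Il23r, Sox13, Notch1 and Kit were added after their values were seen. So were Xrcc6, Ccr7, Klf2, Zbtb16, Ncr1, Klrb1c, Tbx21, Gzma, Klrd1 and Il2rb. Members and lists were chosen with earlier results of these data known. Distances along the loci were not computed, because the build behind the array is not given. Alternatives were quantile normalization, median centring, cyclic loess, a pseudocount of 16, a filter at the median signal, eBayes with a trend and robust prior, array weights, a replicate block, leaving out probe sets with several genes, leaving out each array, and, chosen after seeing the data, counting identical probe sets once. Plots were drawn with matplotlib 3.10.9 in Python 3.11.15.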

Additional observations from a re-analysis of the deposited data

How the results depend on the processing

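The 0 receptor probe sets called higher stayed 0 under every alternative run. The 0 called lower became 1 with the pseudocount of 16, 1 among probe sets at or above the median signal (Trav14d-3-dv8 17299913 both times) and 3 with the intensity trend and robust prior, and was 0 under the others, each omission of 1 array included. The median log2 difference of alpha probe sets, -0.62, was -0.41 after median centring and -0.82 to -0.52 with 1 array left out, and that of Trbv13-2, -0.82, was -0.61 after centring. In both cases the centring removed the array-wide shift. The 346 probe sets called over the whole array became 580 with quantile normalization, 593 with cyclic loess, 763 with the pseudocount, 588 with the filter, 914 with the intensity trend, 625 with array weights and 112 to 202 with 1 array left out (202, 112 and 147 without Ets1-/- replicates 1 to 3, and 186, 193 and 160 without WT replicates 1 to 3). The cause was not tested beyond the smaller number of arrays in the last of these. Among receptor-related genes, the 0 called higher became 1 (Ptcra) with quantile normalization, median centring, cyclic loess, the pseudocount, the filter, the intensity trend and array weights. The 1 called lower (Ets2) became 3 with the intensity trend, Dntt among them, and 0 with any 1 array left out.

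The replicate numbers are shared by the groups, but deviations of same-numbered arrays from their group means correlated at -0.03, 0.02 and -0.02 over all probe sets, so the numbers were not taken as pairs. With the replicate block 48 probe sets were called, 0 of them receptor probe sets, and 0 receptor-related genes were called lower, with an adjusted p of 0.159 for Ets2 and 0.306 for Trav14d-3-dv8 17299913.

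Signs turned only near 0 among the genes followed. With median centring Trav12-2 17300173 was 0.17, Ets1 0.11 and Cd3e 0.09. Cd3d was -0.02 with quantile normalization and -0.0037 with cyclic loess, and Trgv6 was -0.00014 with the pseudocount. With 1 array left out the ranges were -0.85 to 0.21 for Trav12-2 17300032, -0.20 to 0.16 for Trav12-2 17300173, -0.22 to 0.25 for Trgv5, -0.09 to 0.18 for Trgv6 and -0.19 to 0.05 for Ets1. Of the 347 refits of single receptor probe sets, 331 kept their direction and side of the threshold. The gamma probe sets were dim, which limits what can be read from them.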
